A study of Mus musculus with 65 samples.

Results

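The cells described here are bone cells marked by an N-cadherin reporter, sorted from mice given 5-fluorouracil (5FU) and from mice in homeostasis. They are 7 of the 65 RNA-seq libraries of a series on hematopoietic stem cells and the niche cells around them. The 5FU group holds 3 libraries, which the labels describe as Tomato-positive bone cells of femur and tibia after fluorouracil (5Fu_Ncad_tdT_bone). The homeostasis group holds 4 libraries of bone cells that carried Tomato and lacked CD45, Ter119 and CD31, the surface proteins of leukocytes, red cells and endothelium (Ncad_bone). The matching marrow groups, 3 libraries after 5FU and 4 in homeostasis, served for comparison. Members were all libraries that the labels put in these groups. The study's stated design was the transcriptome of stem cells and niche cells in homeostasis and under chemotherapeutic stress, and the bone comparison gives the change of the endosteal reporter cells. No source used here gives the dose of 5FU for the niche cells, the day of the sort, the age or strain of the mice, the negative gate of the 5FU sort, the allele that drives Tomato, or whether replicates came from separate animals. The p-values therefore measure the spread between these libraries, which may be technical.

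5FU is a pyrimidine analogue that blocks thymidylate synthase and is built into RNA and DNA, so it kills dividing cells and raises p53. In marrow it removes cycling blood progenitors, and the stem cells that survive rebuild the blood from niches made by stromal, perivascular, endothelial and bone-lining cells. N-cadherin is an adhesion protein of mesenchymal cells, including bone-lining cells and stromal progenitors. Such stroma supplies Cxcl12, the chemokine that holds stem cells in marrow, and Kit ligand, their survival factor.

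The 2 groups came from 2 tables that were made separately, so treatment and table cannot be told apart in the bone comparison. Values are FPKM (fragments scaled to transcript length and library size), scaled between the 7 libraries by the median of ratios. Changes are differences of log2(scaled FPKM + 1), a scale that understates the change of low genes, and are given ± their standard error. A gene was called at an adjusted p under 0.05 and an absolute log2 change of at least 1, and a change of at least 2 is called large. An FPKM of 1 or more was reached by 13006 to 13876 genes in each of the 7 libraries. FPKM keeps no absolute depth, but relative depths read from the steps between low values spanned a 2.176-fold range. Libraries of the 5FU group correlated with each other at 0.950 to 0.955, those in homeostasis at 0.908 to 0.943, and libraries of different groups at 0.800 to 0.841. The summed FPKM of nuclear small RNAs was 36978 to 38209 after 5FU and 10728 to 11943 in homeostasis. In the marrow libraries this sum was 19067 to 24562 and 22072 to 30351. Its part in the results was not tested.

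Of 13990 genes tested, 3303 (23.6%) were called, 1519 (10.9%) higher and 1784 (12.8%) lower after 5FU. These shares are the background for the count of every gene list below. Large changes were found for 768 genes (5.49%), with 367 (2.62%) higher and 401 (2.87%) lower. The libraries of the groups did not overlap for 6679 genes (47.7%), and the genes named for the largest rises and falls were chosen among these. The median gene stood at -0.04, and with scaling to a list of housekeeping genes it stood at -0.26, where 1104 genes were called higher and 2517 lower. Among protein-coding genes the shares were 8.65% higher and 13.8% lower, against 31.5% and 3.46% among nuclear small RNAs. Calls also moved with transcript length and GC content. Of the 3000 protein-coding genes with the shortest transcripts 15.4% were called higher and 11.2% lower, of the next 2997 genes 7.54% and 17.7%, and of the 2996 with the longest 6.51% and 10.5%. From the lowest to the highest of 4 equal groups by GC content, the share called lower was 6.47%, 10.8%, 16.0% and 22.1%, and the median log2 change 0.15, -0.04, -0.18 and -0.41. The part of length and GC content in the results was not tested. Among the marrow cells, 885 of 15435 genes (5.73%) were called higher and 903 (5.85%) lower after 5FU.

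The reporter's own gene and the markers of the sort came first. Cdh2, which encodes N-cadherin, was 23.7, 26.2 and 29.3 scaled FPKM in 5FU replicates 1 to 3 and 36.7, 38.4, 42.3 and 42.4 in homeostasis replicates 1 to 4. Its log2 change of -0.58 ± 0.13 did not pass the fold threshold (adjusted p = 0.0086). Ptprc, the gene of CD45, was 0.641, 1.39 and 2.39 after 5FU and 5.66, 0.909, 5.87 and 3.65 in homeostasis, and Pecam1, the gene of CD31, was 1.16, 1.93 and 2.37 and 0.555, 0.632, 0.2495 and 0.736. Neither was called, although Ptprc was called lower without homeostasis replicate 2, at -1.34, and Pecam1 was called higher with a pseudocount of 0.1, at 1.59. Cdh2 was thus present in all 7 libraries, and neither marker of the negative gate passed 6 FPKM in any of them.

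Genes of cartilage and the joint surface showed the deepest falls. Of 24 tested members of this list, 18 were called lower and 2 higher, with a median log2 change of -3.42 against -0.04 and 12.8% called lower over all genes. Some members, among them Cytl1, Acan and Col9a3, passed the filter of 1 FPKM in 3 libraries only through homeostasis, which largely fixed their direction. Without homeostasis replicates 1 and 2 together, 14 members were tested and 9 were called lower. With 2 homeostasis libraries left, a member had to reach 1 FPKM in a 5FU library to be tested. Prg4 (chromosome 1, 150449412 to 150466165, minus strand of mm10) encodes lubricin, the lubricant of joint surfaces. It was 47.2, 47.7 and 48.1 scaled FPKM after 5FU and 4989, 5643, 4475 and 9152 in homeostasis, a change of -6.904 ± 0.23 (adjusted p = 1.1e-06). The lowest homeostasis library was far above the highest 5FU library. Cytl1, a secreted cytokine-like protein of chondrocytes, was listed at 0 in all 3 libraries after 5FU and was 3950.2, 1538, 958 and 1331 in homeostasis. Clec3a, a cartilage lectin outside the list, was 0.118, 0 and 0 after 5FU and 594, 667, 163 and 96.2 in homeostasis, a change of -8.09 ± 0.65 (adjusted p = 5.6e-05).

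Chad, the matrix protein chondroadherin, was 46.4, 40.2 and 29.5 scaled FPKM after 5FU and 2619, 2415, 963 and 1079 in homeostasis, a change of -5.36 ± 0.38. Comp, the cartilage oligomeric matrix protein, was 24.5, 23.1 and 18.9 and 1302, 1295, 442 and 340.5, a change of -4.95 ± 0.48. Homeostasis replicates 1 and 2 stood above replicates 3 and 4 for both genes, and all 4 stood above every 5FU library. Lect1, the cartilage angiogenesis inhibitor chondromodulin, changed by -6.02 ± 0.52. Col9a3, a collagen on the surface of cartilage fibrils, fell from 34.4 ± 24.5 to 0.286 ± 0.304 scaled FPKM (mean ± SD, n = 4 and n = 3), and Acan, the proteoglycan aggrecan, was also called lower. Col9a3 fell by 4.59 and Col2a1, the main collagen of cartilage, by 2.23 on the log2 scale. Against this direction, Col11a1, a collagen of cartilage and of bone matrix, rose from 19.9 ± 2.73 to 95.4 ± 2.86, and Col11a2 was the other member called higher. Without 5FU replicate 1 or 2, 1 member was called higher. Outside the list, Scrg1, a gene of differentiating chondrocytes, changed by -5.53 ± 0.37, and Cilp, a matrix protein of the intermediate layer of cartilage, by -3.23 ± 0.50. The membrane-binding Anxa8 changed by -5.67 ± 0.58.

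Genes of the Lepr-positive, adipogenic stroma were lower as a list. Of 34 tested members 24 were called lower and 0 higher in the limma fit, against 12.8% lower over all genes. Their median log2 change was -1.92. At an unadjusted p under 0.05, 2 members were higher and 26 lower. Lepr, the leptin receptor (chromosome 4, 101717404 to 101815352, plus strand of mm10), was 46.9, 73.9 and 55.3 scaled FPKM after 5FU and 946, 917, 1271 and 1385 in homeostasis. Its change was -4.25 ± 0.20 (adjusted p = 5.6e-06), and the groups did not overlap. Adipoq, the hormone adiponectin, was 249, 258 and 228 and 2317, 2056, 2864 and 3186, a change of -3.39 ± 0.16. Igfbp5, a binding protein of insulin-like growth factors, was 12.99, 11.7 and 17.2 and 251, 214, 429 and 427, a change of -4.42 ± 0.28. Hp, the hemoglobin scavenger haptoglobin, changed by -3.097 ± 0.15. Ebf1, a transcription factor of this stroma and of B cells, changed by -2.37 ± 0.14, and Foxc1, a factor that keeps the stroma in its niche state, by -1.26 ± 0.17. In bulk samples, fewer cells of a type and less RNA per cell cannot be told apart, here and in all results that follow.

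Among ligands that act on stem cells, 13 of 36 tested were called lower, against 12.8% over all genes. The cytokine Lif was the 1 called higher, and the median was -0.55. Without 5FU replicate 3 or homeostasis replicate 3 or 4, 2 were called higher. Cxcl12 (chromosome 6, 117168535 to 117181367, plus strand of mm10) was 3599.9, 3389 and 3469 scaled FPKM after 5FU and 15840, 14503, 18230 and 18937 in homeostasis. It changed by -2.27 ± 0.15 (adjusted p = 2.3e-05). Kitl, the Kit ligand, was 46.7, 47.6 and 48.9 and 189, 245, 266 and 272, a change of -2.31 ± 0.14. Its spread within the 5FU group was small, and the groups did not overlap. Bmp6, a bone morphogenetic protein that also signals iron load, was 3.77, 2.53 and 2.89 and 114, 96.3, 108 and 99.5, a change of -4.71 ± 0.15 (adjusted p = 1.1e-06). Il34, a ligand of the macrophage growth factor receptor, was 14.2, 11.97 and 12.5 and 201, 145, 188 and 203, a change of -3.73 ± 0.15. Gas6, a ligand of the TAM receptors, changed by -2.35 ± 0.14, and Vcam1, the adhesion ligand of blood cells, by -2.34 ± 0.09. Igf1 was 115, 116 and 98.9 and 109, 129, 118 and 156 and did not pass the test (adjusted p = 0.27). Angpt1, the ligand of the Tie2 receptor, changed by -0.53 ± 0.20 (adjusted p = 0.058). Of the genes given here, Cxcl12, Kitl, Gas6 and Vcam1 also stand in the stroma list. Il34 and Lif are also in the cytokine list and Bmp6 in the TGF-beta and BMP list, so these results overlap.

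**Figure D1:**
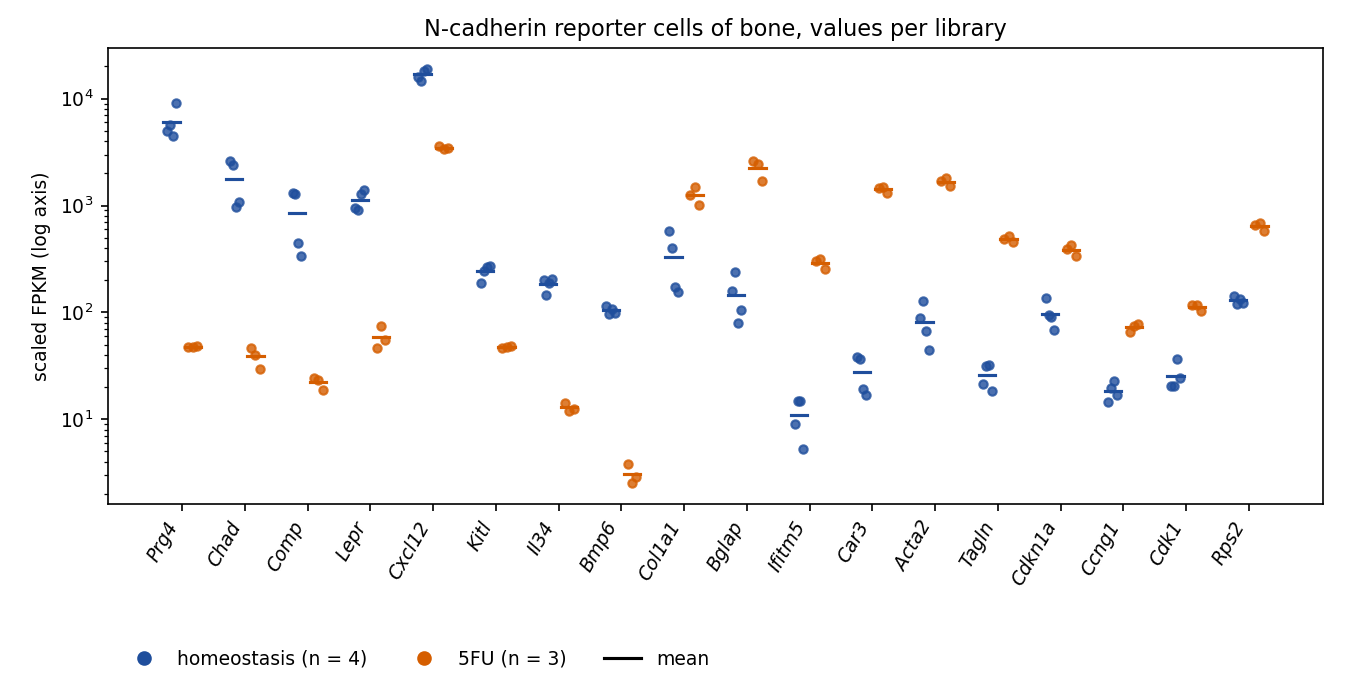
Scaled FPKM on a log axis for named genes in each library of bone reporter cells, in homeostasis (blue, n = 4) and after 5FU (orange, n = 3), with a line at each group's mean. Prg4 stood at 47.2, 47.7 and 48.1 after 5FU and at 4989, 5643, 4475 and 9152 in homeostasis, and Car3 at 1469, 1499.7 and 1312 and 37.8, 36.3, 19.3 and 16.8.

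Genes of osteoblasts and osteocytes, which lay down and mineralize bone, went mostly the other way. Of 28 tested members 16 were called higher and 3 lower, with a median of 1.41, against 10.9% higher over all genes. Car3, a carbonic anhydrase found in bone cells, muscle and fat (chromosome 3, 14863512 to 14872523, plus strand of mm10), was 1469, 1499.7 and 1312 scaled FPKM after 5FU and 37.8, 36.3, 19.3 and 16.8 in homeostasis. Its change was 5.73 ± 0.29 (adjusted p = 6e-06). It also stands in the adipocyte list, where 1 of 8 tested markers was called higher (Car3) and 2 were called lower. Ifitm5, a membrane protein of mineralizing osteoblasts, was 302, 316 and 254 and 8.996, 14.8, 14.7 and 5.26, a change of 4.701 ± 0.32. Bglap, the bone hormone osteocalcin, was 2623, 2438 and 1703 and 159.7, 237, 80.3 and 106, a change of 4.04 ± 0.35. Reads of Bglap can be shared with its near-identical neighbour Bglap2, so the split between them is uncertain. Cgref1, a secreted growth regulator, was 143, 154 and 111 and 9.29, 11.02, 9.94 and 10.8, a change of 3.59 ± 0.15. In each of these genes the lowest 5FU library stood above the highest homeostasis library. For Car3, Ifitm5 and Bglap this was a condition of being named, and 47.7% of all tested genes had groups that did not overlap.

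Type I collagen was higher as well. Col1a1 was 1250.2, 1476 and 1016 scaled FPKM after 5FU and 583, 399.9, 172 and 155 in homeostasis, a change of 2.13 ± 0.45 (adjusted p = 0.0064), and Col1a2 changed by 1.36 ± 0.21. Homeostasis replicates 1 and 2 were the nearer ones to the 5FU group. Mmp13, the collagenase of bone and growth plate, was 468, 513 and 496 and 224, 244, 81.4 and 101, a change of 1.75 ± 0.38. Some other bone matrix genes were not called. Ibsp, bone sialoprotein, was 3397, 3367 and 3169.8 and 3315, 2932, 5453 and 5421 with overlapping groups (adjusted p = 0.33). Spp1, osteopontin, was 7723, 7421 and 6854 and 7446, 6963, 5432 and 4629 (adjusted p = 0.26). Dmp1, an osteocyte protein, changed by 0.79 ± 0.51 (adjusted p = 0.25), or by 1.63 without homeostasis replicates 1 and 2, where it was called. The 3 members called lower were the phosphate regulators Phex, Enpp1 and Ank.

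Some transcription factors of the osteogenic lineage were examined beside the matrix genes. Mef2c, a factor of osteocytes, muscle and blood vessels, changed by 1.77 ± 0.40. Runx2 and Sp7, which set osteoblast fate, changed by 0.72 ± 0.24 and 0.78 ± 0.31 and were not called, although Sp7 was called without homeostasis replicates 1 and 2, at 1.28. The osteocalcin promoter is shown because Bglap is the best known marker of mature osteoblasts and was called higher. It holds 1 copy of ACCACA, the core that Runx factors bind (capitals, 132 bases before the RefSeq start). ACCACA was searched on both strands in windows from 250 bases before to 50 after each start, and 16.8% of 32851 RefSeq promoters hold it. Of the list's genes 23 have a promoter in that table and 8 of them hold the motif, among them 3 of the 10 called higher that matched. The window lies at chr3:88384417-88384716, minus strand, of GRCm38.p6 and is printed 5′ to 3′ from RefSeq.
Bglap: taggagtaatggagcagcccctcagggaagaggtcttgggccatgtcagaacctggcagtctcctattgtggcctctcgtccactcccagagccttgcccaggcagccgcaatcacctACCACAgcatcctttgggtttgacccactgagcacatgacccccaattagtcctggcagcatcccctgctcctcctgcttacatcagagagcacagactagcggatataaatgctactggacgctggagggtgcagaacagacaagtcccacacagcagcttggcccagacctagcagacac

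A few contractile genes of smooth muscle cells and myofibroblasts rose strongly, while other pericyte markers fell. Acta2, smooth muscle actin (chromosome 19, 34241090 to 34255590, minus strand of mm10), was 1691, 1811 and 1514 scaled FPKM after 5FU and 87.99, 127, 67.7 and 44.8 in homeostasis, a change of 4.43 ± 0.30 (adjusted p = 2.7e-05). Tagln, an actin-binding protein of smooth muscle, was 490.3, 518 and 453 and 21.5, 31.3, 32.3 and 18.4, a change of 4.22 ± 0.20. Tpm2, a tropomyosin, was 1066, 1025 and 876 and 117, 84.4, 80.9 and 77.9, a change of 3.46 ± 0.16. Actg2, the enteric smooth muscle actin, was 47.5, 42.6 and 58.99 and 5.44, 0.899, 2.89 and 1.93, a change of 3.87 ± 0.38. All 4 genes kept the groups apart, as did 47.7% of all tested genes. For Acta2, Tagln and Actg2 this was a condition of being named among the largest rises. Of 13 tested pericyte and smooth muscle markers, however, 2 (Acta2 and Tagln) were called higher and 5 lower, the latter Myh11, Rgs5, Kcnj8, Notch3 and Des, of which 3 were called without 5FU replicate 3. Tpm2 made up most of the summed skeletal muscle markers, which reached 900 to 1092 after 5FU and 123 to 154 in homeostasis.

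**Figure D2:**
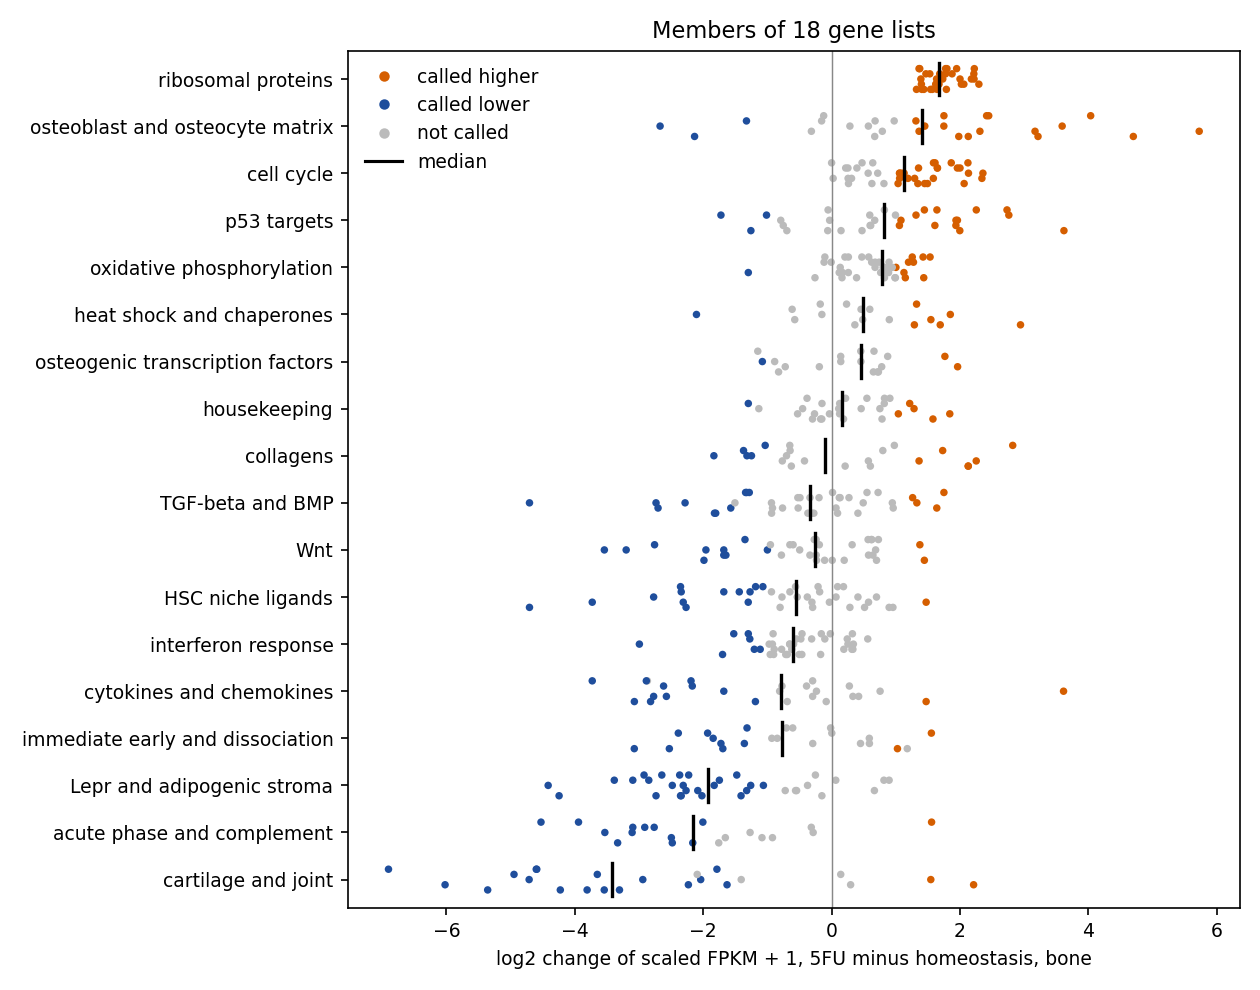
Log2 change of scaled FPKM + 1 in bone (5FU minus homeostasis) for tested members of gene lists, one point per gene, orange when called higher, blue when called lower and grey when not called, with a black line at the median of all tested members. Genes at 0 in every library of a group are not drawn. The medians run from -3.42 for cartilage and joint genes to 1.68 for ribosomal proteins.

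Part of the targets of p53, the transcription factor that DNA damage and RNA stress activate, were higher. Of 31 tested members 14 were called higher, 3 lower and 14 not at all, with a median of 0.82. This stands against 10.9% called higher over all genes. Cdkn1a, the cell cycle inhibitor p21 (chromosome 17, 29090976 to 29100727, plus strand of mm10), was 393, 423 and 334 scaled FPKM after 5FU and 136, 95.02, 90.7 and 68.9 in homeostasis, a change of 1.998 ± 0.21 (adjusted p = 0.00025). Eda2r, a death receptor, was 8.06, 6.67 and 6.85 and 1.11, 0, 0 and 0, a change of 2.76 ± 0.31. It would not have passed the filter without the 5FU group, which largely fixed its direction. Ccng1, cyclin G1, was 65.4, 74.1 and 77.8 and 14.5, 19.6, 22.6 and 16.8, a change of 1.94 ± 0.17. Bax, which opens mitochondria in apoptosis, changed by 1.45 ± 0.13, and the stress cytokine Gdf15 by 2.25 ± 0.36. Pvt1, a long noncoding RNA, changed by 3.62 ± 0.52. Mdm2, the ligase that degrades p53, changed by 1.06 ± 0.15 and was called, but not with housekeeping scaling (0.80) or without homeostasis replicate 4 (0.94). In a fit of genes with a mean of at least 5 FPKM, 9 members were called higher, since fewer members were tested there. The members called lower were Sesn1, Btg2 and Abhd4.

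The upstream Cdkn1a promoter is shown because it holds a pair of ACATGT sequences, each the centre of a p53 half-site. The pair was searched with up to 13 bases between its members. It reads the same on both strands, and 24 of 32851 RefSeq promoters hold it (0.0731%). Of 22 list genes with a promoter in the table, 1 holds the pair. The window lies at chr17:29090729-29091028, plus strand, of GRCm38.p6, and the pair (capitals) begins 49 bases before the start.
Cdkn1a: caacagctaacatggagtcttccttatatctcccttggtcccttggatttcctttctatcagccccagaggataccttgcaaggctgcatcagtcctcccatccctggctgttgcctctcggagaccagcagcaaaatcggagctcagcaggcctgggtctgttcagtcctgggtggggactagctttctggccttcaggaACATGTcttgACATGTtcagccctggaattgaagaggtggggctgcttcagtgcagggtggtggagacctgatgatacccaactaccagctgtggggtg

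Genes of DNA replication and mitosis were higher at the RNA level. Of 39 tested members 25 were called higher and 0 lower in the limma fit, with a median of 1.13, against 10.9% higher over all genes. At an unadjusted p under 0.05, 29 were higher and 0 lower. With single libraries left out, 19 to 24 members were called higher. Cdk1, the kinase that starts mitosis (chromosome 10, 69335146 to 69352938, minus strand of mm10), was 116, 118 and 102 scaled FPKM after 5FU and 20.7, 20.3, 36.6 and 24.3 in homeostasis, a change of 2.13 ± 0.21 (adjusted p = 0.00015). Ccnb2, cyclin B2, was 42.3, 30.8 and 32.8 and 1.84, 10.6, 15.1 and 7.79, a change of 2.12 ± 0.53. Ccne2, cyclin E2 of the entry into S phase, was 25.1, 26.05 and 27.4 and 6.24, 2.63, 5.09 and 4.17, a change of 2.34 ± 0.25. Mki67, the antigen used to stain cycling cells, was 3.66, 3.74 and 4.94 and 3.97, 2.56, 2.92 and 3.63 with overlapping groups and was not called (adjusted p = 0.37). Proliferating blood cells also express these genes. Beside this result, 0 of 14 tested common leukocyte markers and 0 of 15 erythroid markers were called higher, and 5 of 13 B cell markers were (Cd79a, Cd79b, Vpreb3, Igll1 and Ly6d). Some erythroid markers, among them Klf1, Hemgn, Epb4.2 and Rhag, passed the filter only through homeostasis, so they could hardly be called higher. Igll1 would not have passed without the 5FU group. At an unadjusted p under 0.05, the count stayed at 0 higher for leukocyte and erythroid markers. The B cell count was 2 without 5FU replicate 1 and 3 without 5FU replicate 2 or 3. The summed B cell markers were 1989 to 2394 after 5FU and 216 to 5940 in homeostasis. Of 26 tested gene segments of antigen receptors, 17 (65.4%) were called higher and 0 lower in the limma fit, with a median of 1.97. The part of B cell markers and of these segments in the result was not tested.

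Promoters of late cell cycle genes often carry TTTGAA, the cell cycle homology region, and CCAAT boxes. Both motifs were searched on both strands, and no printed match of one overlaps a match of the other. TTTGAA was found in 15 of 34 list genes with a RefSeq promoter and in 17.9% of all promoters, and CCAAT in 27 of 34 and in 37.4%. The Cdk1 window (chr10:69352863-69353162, minus strand) and the Ccnb2 window (chr9:70421505-70421804, minus strand) of GRCm38.p6 are shown because both genes were called and both hold each motif more than once. Capitals mark TTTGAA and CCAAT or their reverse complements.
Cdk1: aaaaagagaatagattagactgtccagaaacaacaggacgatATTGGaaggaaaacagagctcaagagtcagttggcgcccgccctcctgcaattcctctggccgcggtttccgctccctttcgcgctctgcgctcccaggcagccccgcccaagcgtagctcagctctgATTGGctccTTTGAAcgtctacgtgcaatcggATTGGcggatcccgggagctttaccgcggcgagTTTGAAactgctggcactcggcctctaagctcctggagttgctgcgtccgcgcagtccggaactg
Ccnb2: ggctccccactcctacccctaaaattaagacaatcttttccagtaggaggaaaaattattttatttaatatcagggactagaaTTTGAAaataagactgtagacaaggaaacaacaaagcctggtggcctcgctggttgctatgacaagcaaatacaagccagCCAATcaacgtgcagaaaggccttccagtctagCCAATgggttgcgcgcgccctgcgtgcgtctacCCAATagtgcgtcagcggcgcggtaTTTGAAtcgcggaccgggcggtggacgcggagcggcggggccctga

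The drug's own pathway showed the same direction in part. Of 17 tested genes of fluoropyrimidine and thymidylate metabolism, 8 were called higher and 1, the nucleoside transporter Slc29a1, lower. Over all genes 10.9% were called higher, and with housekeeping scaling 5 of the 17 were. Tyms, thymidylate synthase, the enzyme that 5FU blocks, was 181, 147 and 135 scaled FPKM after 5FU and 55.5, 26.95, 46.9 and 28.2 in homeostasis, a change of 2.001 ± 0.27 (adjusted p = 0.00074). Its lowest 5FU library was above its highest homeostasis library. Of the 8, Tyms, Tk1, Rrm1 and Rrm2 also belong to the cell cycle list, so the counts overlap.

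Among D cyclins and inhibitors of cyclin-dependent kinases, 3 of 14 were called higher and 3 lower, against 10.9% and 12.8% over all genes. Ccnd1, cyclin D1, was 36.2, 39.7 and 27.1 scaled FPKM after 5FU and 3.41, 1.898, 0.534 and 1.08 in homeostasis, a change of 3.79 ± 0.36. Ccnd2, cyclin D2, was 1111, 1209.8 and 1510.3 and 453, 439.6, 285 and 196, a change of 1.96 ± 0.29. Cdkn1c, the inhibitor p57, was 37.3, 29.2 and 25.6 and 133, 73.04, 159 and 133, a change of -1.94 ± 0.26. Together with Cdkn1a, a growth-promoting cyclin and an inhibitor were thus both higher. Ccnd3 and Rbl2 were the other members called lower.

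Acute phase and complement genes were mostly lower, against 12.8% called lower over all genes. Of 21 tested acute phase and complement genes, 13 were called lower and 1, the complement inhibitor Cd59a, higher, with a median of -2.16. C3, the central complement protein, was 8.76, 11.1 and 11.9 scaled FPKM after 5FU and 219, 199.6, 325 and 342 in homeostasis, a change of -4.53 ± 0.22. C4b, a complement protein whose reads may be shared with its near-identical neighbour, changed by -3.33 ± 0.16. Serpina3n, a secreted inhibitor of serine proteases outside that list, was 1.25, 1.55 and 1.88 and 242, 159, 198 and 244, a change of -6.35 ± 0.19 (adjusted p = 5.3e-07). Of 26 tested cytokines and chemokines, 11 were called lower, 2 higher and 13 not at all. The latter were Lif and Cxcl13, the chemokine that attracts B cells. Cxcl13 was 219.6, 155 and 195 and 11.4, 61.6, 5.64 and 9.95, a change of 3.61 ± 0.66, and of 4.28 without homeostasis replicate 2. Of 38 tested interferon response genes, 7 were called lower and 0 higher in the limma fit and 31 were not called. The 7 of 38 is not far above the 12.8% called lower over all genes. Without homeostasis replicate 2, 12 interferon response genes were called lower. At an unadjusted p under 0.05, 22 were lower and 2 higher. Tap2, a peptide transporter for antigen presentation, changed by -2.99 ± 0.22, and Irf7, a regulator of interferon genes, by -1.699 ± 0.28.

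Part of the immediate early genes, which cells also switch on while tissue is digested, were lower after 5FU. Of 22 tested members 9 were called lower, 2 higher and 11 not at all, with a median of -0.78, and 1 was called higher without 5FU replicate 1 or 2 or homeostasis replicate 3 or 4. Socs3, a feedback inhibitor of cytokine signals, was 26.4, 22.3 and 16.3 scaled FPKM after 5FU and 342, 250, 121 and 117 in homeostasis, a change of -3.07 ± 0.39. Jun, a subunit of AP-1, was 27.2, 36.1 and 26.9 and 287, 217, 117 and 89.7, a change of -2.39 ± 0.38. Zfp36, which destabilizes cytokine mRNAs, changed by -1.93 ± 0.25. Homeostasis replicates 1 and 2 were the highest for all 3 genes, and every homeostasis library stood above the 5FU group. The part of tissue handling in the cytokine result was not tested.

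Ribosomal protein genes were higher without exception among the 32 tested, at 1.32 to 2.29 with a median of 1.68, and all 32 were called with any single library left out. Reads of these genes can be shared with their many processed pseudogenes, so single values are uncertain. Rps2 was 652, 691 and 577 scaled FPKM after 5FU and 144, 119, 132 and 123 in homeostasis, and Rplp0 was 774, 743 and 626 and 217, 194, 193 and 189. These are short and abundant transcripts, and short protein-coding genes were called higher more often, as given above. Quantile normalization called 28 members higher and housekeeping scaling 32. Of 40 tested nuclear genes of oxidative phosphorylation, 9 were called higher and 1, Sdha of the respiratory complex that also serves the citric acid cycle, lower (85.8, 112 and 67.9 and 225, 239, 209 and 188). Quantile normalization called 3 higher, housekeeping scaling 4, and the fit without homeostasis replicates 1 and 2 called 6. Of 17 heat shock and chaperone genes, 6 were called higher and 1 lower. Cryab, a small heat shock protein, was 229.7, 241 and 207 and 26.8, 25.1, 29.6 and 32.9, a change of 2.94 ± 0.13.

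Matrix and signalling genes were called in both directions, against 10.9% higher and 12.8% lower over all genes. A share near these is not a result about a list. Of 22 tested collagens 6 were called higher, among them Col1a1 and Col1a2, which are also bone matrix genes, and 5 lower, and without 5FU replicate 1 or 2 or homeostasis replicate 1 or 2, 3 were called lower. Col6a3, a chain of the microfibrils around cells, changed by 2.13 ± 0.16, and Col3a1, the collagen of soft connective tissue, by -1.83 ± 0.39. Adamts2, which trims procollagens, was 20.7, 21.6 and 23.1 scaled FPKM after 5FU and 334, 338, 128 and 94.6 in homeostasis, a change of -3.09 ± 0.45. Cpz, a carboxypeptidase that binds Wnt proteins, was 43.2, 37.2 and 33.6 and 0, 0.748, 0.664 and 0.155, a change of 4.84 ± 0.26. Of 36 tested Wnt pathway genes 11 were called lower and 2 higher, the latter Lrp4 and Dkk1, and 1 was called higher without 5FU replicate 3. Sfrp4, a secreted Wnt antagonist, was 95.5, 82.1 and 81.3 and 879, 807, 1205 and 1228, a change of -3.54 ± 0.17. Of 39 tested genes of the TGF-beta and BMP pathway 10 were called lower and 4 higher, the latter a share near that of all genes. Chrdl1, a secreted BMP antagonist, changed by -2.74 ± 0.13, and Bmp6 is given above. Wisp1, a matricellular target of Wnt signals, changed by 3.25 ± 0.29.

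Growth factor genes were called lower more often than higher, against 12.8% called lower and 10.9% called higher over all genes. Pdgfra, the PDGF receptor of stromal progenitors, was 12.97, 10.6 and 14.6 scaled FPKM after 5FU and 47.9, 50.8, 44.04 and 37.2 in homeostasis, a change of -1.75 ± 0.17. Of 18 tested FGF and PDGF genes 5 were called lower, 1, Pdgfc, higher and 12 not at all, and 3 were called lower without 5FU replicate 3. Of 20 tested genes of the insulin-like growth factor axis 6 were called lower, 1, Pappa2, higher and 13 not at all. The count called higher was 0 without 5FU replicate 2, 3 without homeostasis replicate 2 and 2 without homeostasis replicate 3. The binding protein Igfbp3 was 12.5, 11.3 and 8.74 and 110.3, 101, 190 and 188, a change of -3.598 ± 0.26. Of 9 tested Notch genes 4 were called lower, and the target Hes1 was called higher at 1.17 ± 0.12, a call that quantile normalization and housekeeping scaling did not give.

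Of 24 tested fibroblast, tendon and periosteum genes 4 were called higher and 9 lower. The 4 were the tendon genes Scx, Tnmd, Kera and Col12a1. Scx, the transcription factor of tendon cells, was 59.1, 45.6 and 42.2 scaled FPKM after 5FU and 17.9, 16.1, 12.7 and 20.9 in homeostasis, a change of 1.48 ± 0.20. Tnmd, the tendon protein tenomodulin, was 325, 299.9 and 315 and 71.7, 80.5, 107 and 202, a change of 1.56 ± 0.32. In both genes the groups did not overlap, as in 47.7% of all tested genes. Of 36 tested matrix proteases and inhibitors 8 were called higher, or 5 without homeostasis replicate 3, and 8 lower. Calls of proteoglycans and matricellular genes were 4 higher and 11 lower among 29 tested, and those of glycolysis and hypoxia genes 3 higher and 6 lower among 23. Of 7 tested cadherins and catenins 2, Cdh13 and Jup, were called lower. Of 28 housekeeping genes 5 were called higher and 1 lower, with a median of 0.16.

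Several genes with the largest changes belong to no list. Gzme, a granule protease that some stromal cells also express, was 38.95, 28.5 and 31.9 scaled FPKM after 5FU and 0, 0.0378, 0 and 0 in homeostasis, a change of 5.07 ± 0.20 (adjusted p = 2.4e-06). Reg3g, an antibacterial lectin, was 33.2, 37.1 and 69.4 and 0, 1.36, 7.77 and 0, and its change was 4.402 ± 0.73, or 5.08 without homeostasis replicate 3. Arl5c, a small GTPase of the Arf family, changed by 3.99 ± 0.22, the muscle protein gene Mlip by 3.93 ± 0.31, and Psrc1, a spindle protein, by 4.15 ± 0.48. Among the falls, Fmo2, a flavin monooxygenase, was 2.09, 7.83 and 3.62 and 239.6, 299, 312 and 328, a change of -5.87 ± 0.32. Htra4, a serine protease, changed by -5.18 ± 0.26. Msmp, a small secreted protein, was 0.254, 0 and 0.0442 and 119.7, 372, 29.8 and 779, and its change of -7.37 ± 0.95 lay between -8.23 and -6.67 when homeostasis replicate 3 or 4 was left out.

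Markers of other cell types were present in both groups, and 12.8% of all tested genes were called lower. Of 14 tested common leukocyte markers 6 were called lower, or 10 without homeostasis replicate 2 and 3 without 5FU replicate 3. Laptm5, a lysosomal protein of blood cells, changed by -2.27 ± 0.36. Their summed level was 267 to 386 after 5FU and 393 to 1024 in homeostasis. Of 15 erythroid markers 8 were called lower, or 6 to 10 with single libraries left out, 3 without homeostasis replicates 1 and 2 and 1 of the 8 tested at a mean of at least 5 FPKM. They included the erythroid factor Klf1 at -2.796 ± 0.31, and their sum was 1909 to 3526 after 5FU and 651 to 6603 in homeostasis. Klf1, Hemgn, Epb4.2 and Rhag passed the filter only through homeostasis, which largely fixed their direction. Of 19 neutrophil markers 2 were called lower, and 11 were without homeostasis replicate 2, 1 without 5FU replicate 1 or homeostasis replicate 4 and 0 without 5FU replicate 2 or 3. The 2 of 19 is near the share of all genes called lower and is not a result about these markers. Homeostasis replicate 2, with a summed level of 1663, stood below the 5882 to 11137 of the other 3 homeostasis libraries. After 5FU the sum was 2000.2 to 3249. The sum of 20 endothelial markers was 179 to 198 after 5FU and 210.2 to 258 in homeostasis. The sum of 23 macrophage and monocyte markers was 571 to 842 and 1232 to 2125, of 15 osteoclast markers 303 to 338 and 315 to 478, of 15 Schwann cell and glial markers 278 to 325 and 302 to 402, and of 19 T and NK cell markers 10.7 to 15.5 and 17.2 to 56.2. Mast cell and basophil markers summed to 626 in homeostasis replicate 2 and to 6.27 to 39.8 in the other 6 libraries. At 0 in all 7 libraries were 2 T and NK cell markers and 1 mast cell marker, and no member of the leukocyte, erythroid, neutrophil, endothelial, macrophage, osteoclast, B cell or Schwann cell lists. Kit, the stem cell and mast cell receptor, was 3.28, 3.71 and 4.36 and 14.9, 32.8, 22.4 and 17.7. The part of these cells in the gene results was not tested.

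The same 5FU split was then compared between bone and marrow cells. In this fit a constant offset of a gene between the tables cancels, but an offset that differs between tissues does not. The summed nuclear small RNAs given above were apart between the bone groups and overlapped between the marrow groups. The difference of the change was called for 2167 of 15435 genes (14%), 995 (6.45%) with a more positive and 1172 (7.59%) with a more negative change in bone. Of the 1519 genes called higher in bone, 605 had a called difference in the same direction (39.8%). Of the 1784 called lower, 644 did (36.1%). The difference holds the same bone values by which these genes were called, so a shared direction is in part built in. In the marrow cells, 323 of those called higher in bone were also called higher (21.3%), and 446 of those called lower were also called lower (25%). With housekeeping scaling 1229 differences were positive and 904 negative.

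Most cartilage genes were at or near 0 in marrow. Of 24 tested in bone, 15 averaged under 1 scaled FPKM in marrow in both groups, a split made after the values were seen. They had little or no room to fall there, so the 10 of them whose difference was called more negative restate the fall in bone. Of the other 9, the difference was called more negative for 6 and more positive for 1, Col11a1. Prg4 was low in marrow too. It averaged 8.05 ± 2.93 scaled FPKM in marrow after 5FU and 5.88 ± 1.53 in homeostasis (mean ± SD), and the difference of the changes was -7.26 ± 0.37 (adjusted p = 1e-07). Lepr fell in both tissues, by 2.86 in marrow, and the difference was -1.38 ± 0.33 (adjusted p = 0.011). Several niche ligands had a more negative change in bone. Cxcl12 changed by -0.43 in marrow, with a difference of -1.83 ± 0.19, Kitl by -0.77, with -1.54 ± 0.22, and Il34 by -0.95, with -2.77 ± 0.19. For Igfbp5 and C3 the changes in marrow were -4.79 and -4.21, and the differences of 0.37 ± 0.35 and -0.31 ± 0.28 did not pass the test. Of 31 tested p53 targets the difference was called more positive in bone for 3 and more negative for 4. Of the 3, 1 averaged under 1 scaled FPKM in both marrow groups. For Gdf15 the difference was 1.79 ± 0.43 (adjusted p = 0.012). The targets Cdkn1a, Ccng1 and Bax changed by 2.28, 1.71 and 1.31 in marrow, with differences of -0.28 ± 0.26, 0.23 ± 0.23 and 0.14 ± 0.16 that did not pass the test.

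Some cell cycle genes had a more positive change in bone. For 12 of 39 the difference was called more positive in bone and for 0 more negative in the limma fit (0 also at an unadjusted p under 0.05), and 2 of the list were called higher in marrow. Of the 39, 6 averaged under 1 scaled FPKM in both marrow groups, and 4 of the 12 were among these. For those 4 the difference restates the rise in bone. Of the other 33, the difference was called more positive for 8. The difference was 3.18 ± 0.81 for Ccnb2 (adjusted p = 0.016) and 1.597 ± 0.61 for Cdk1, which did not pass (adjusted p = 0.088). The contractile genes Acta2 and Actg2 rose more in marrow. Acta2 averaged 1026 ± 195 scaled FPKM in marrow after 5FU and 1.504 ± 0.866 in homeostasis, and the difference was -4.303 ± 0.47. Ccnd2 changed by 5.87 in marrow, with a difference of -3.91 ± 0.37. Of 28 tested bone matrix genes the difference was called more positive in bone for 10 and more negative for 3, among them Spp1 at -1.48 ± 0.23, and it was not called for 15. In both marrow groups 4 of the 28 averaged under 1 scaled FPKM, and 3 of the 10 were among these. The difference did not pass for Col1a1, Bglap, Ifitm5, Car3 and Cgref1 (adjusted p = 0.74, 0.13, 0.1, 0.18 and 0.14). Ibsp, which did not pass the test in bone, averaged 234 ± 107 after 5FU and 6591 ± 727 in homeostasis in marrow, a difference of 4.598 ± 0.40 (adjusted p = 1.1e-05). Mmp13 fell in marrow, by 1.69, and rose in bone, with a difference of 3.44 ± 0.44. Runx2 changed by -1.35 in marrow, with a difference of 2.07 ± 0.28.

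Opposite calls in the 2 tissues were found for a few named genes. Tmem140, a transmembrane protein, was 34.8, 33.01 and 29.9 scaled FPKM after 5FU and 146, 121, 152 and 151 in homeostasis in bone, and in marrow averaged 79.8 ± 6.84 and 4.17 ± 0.501. Its difference of -6.06 ± 0.17 had an adjusted p of 1.7e-10. Kit fell by 2.21 in bone and rose by 1.93 in marrow, where it averaged 5.51 ± 2.62 and 0.6398 ± 0.281. Serpina3n fell in bone and was not called in marrow, where it averaged 8.65 ± 3.86 and 5.34 ± 0.966, with a difference of -6.89 ± 0.33.

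**Figure D3:**
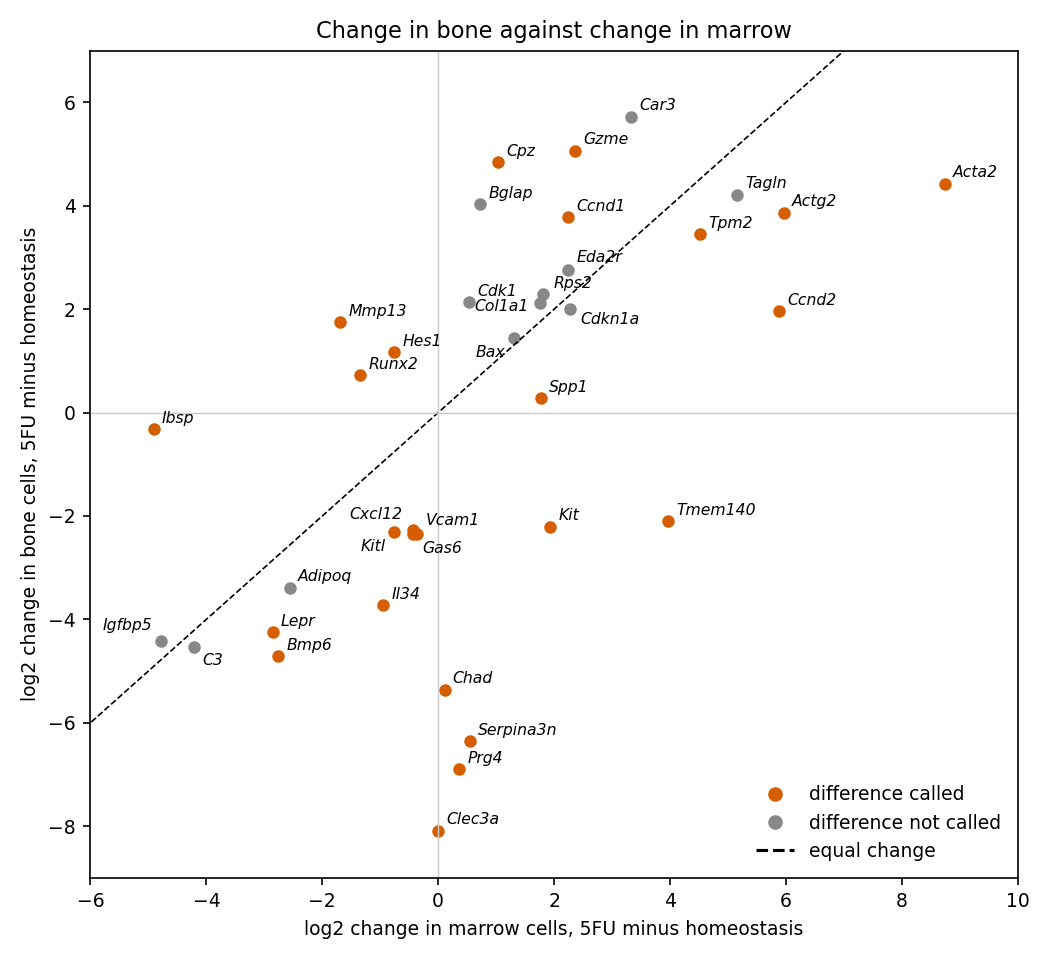
Log2 change (5FU minus homeostasis) in bone cells on the vertical axis against marrow cells on the horizontal axis for named genes, each labelled, orange where the difference of the changes was called and grey where it was not, with a dashed line at equal change. Prg4, Chad, Serpina3n and Clec3a lie far below the line. Chad and Clec3a were at or near 0 FPKM in marrow in both groups. Acta2, Actg2 and Ccnd2 lie to its right.

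Some genes that separated the bone groups also differ between other sorted niche populations in homeostasis. These are cells marked by Col2.3-GFP (an osteoblast reporter), Ng2-RFP, Lepr, Cxcl12-RFP and Nestin-GFP. Levels here are deposited FPKM as mean ± SD, and levels after 5FU come from the other table. Bglap was 2267 ± 507 after 5FU, 151 ± 74.2 in bone reporter cells in homeostasis, 7954 ± 2232 in Col2.3-GFP cells and 7.72 ± 3.85 in Lepr cells. Lepr was 58.9 ± 13.7 after 5FU, 1162 ± 243 in homeostasis, 35.5 ± 14.5 in Col2.3-GFP cells and 812 ± 137 in Lepr cells. Bglap was thus high and Lepr low in both the 5FU bone cells and the Col2.3-GFP cells, but other genes parted them. Chad was 38.9 ± 8.98 after 5FU and 790 ± 393 in Col2.3-GFP cells, and Cxcl12 3501 ± 132 and 1000 ± 436. Ng2-RFP cells had 21400 ± 2055 for Bglap and 43.9 ± 4.78 for Lepr. Prg4 was 47.9 ± 0.0295 after 5FU, 6240 ± 2185 in homeostasis and 982 ± 491 in Col2.3-GFP cells, with a mean of at most 44.7 in the Lepr, Cxcl12-RFP, Nestin-GFP and Ng2-RFP cells. Acta2 was 1679 ± 158 after 5FU, above the 423 ± 63.3 of Ng2-RFP cells and the 186 ± 50.4 of Col2.3-GFP cells. Gzme was 33.3 ± 5.63 after 5FU and 1.56 ± 1.37 in Col2.3-GFP cells. Some levels raised after 5FU were also reached in untreated sorts. Cdkn1a was 385 ± 47.5 after 5FU and 361 ± 15.4 in Ng2-RFP cells, and Gdf15 25.8 ± 4.15 and 25.9 ± 6.91 in Lepr cells. Cdk1, Tyms and Rps2 averaged 113, 155 and 643 after 5FU and 257, 319 and 734 in Col2.3-GFP cells. Ccng1, Bax and Eda2r went the other way, at 72.7, 181 and 7.23 after 5FU. Their highest means in the sorts listed above were 29.3, 92.0 and 0.808. The erythroid factor Klf1 was 173 ± 23.0 in Col2.3-GFP cells, 0.169 ± 0.080 after 5FU and 7.77 ± 3.25 in bone reporter cells in homeostasis. The part of erythroid cells in the Col2.3-GFP levels of Cdk1, Tyms and Rps2 was not tested. No test was made across the tables here.

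**Figure D4:**
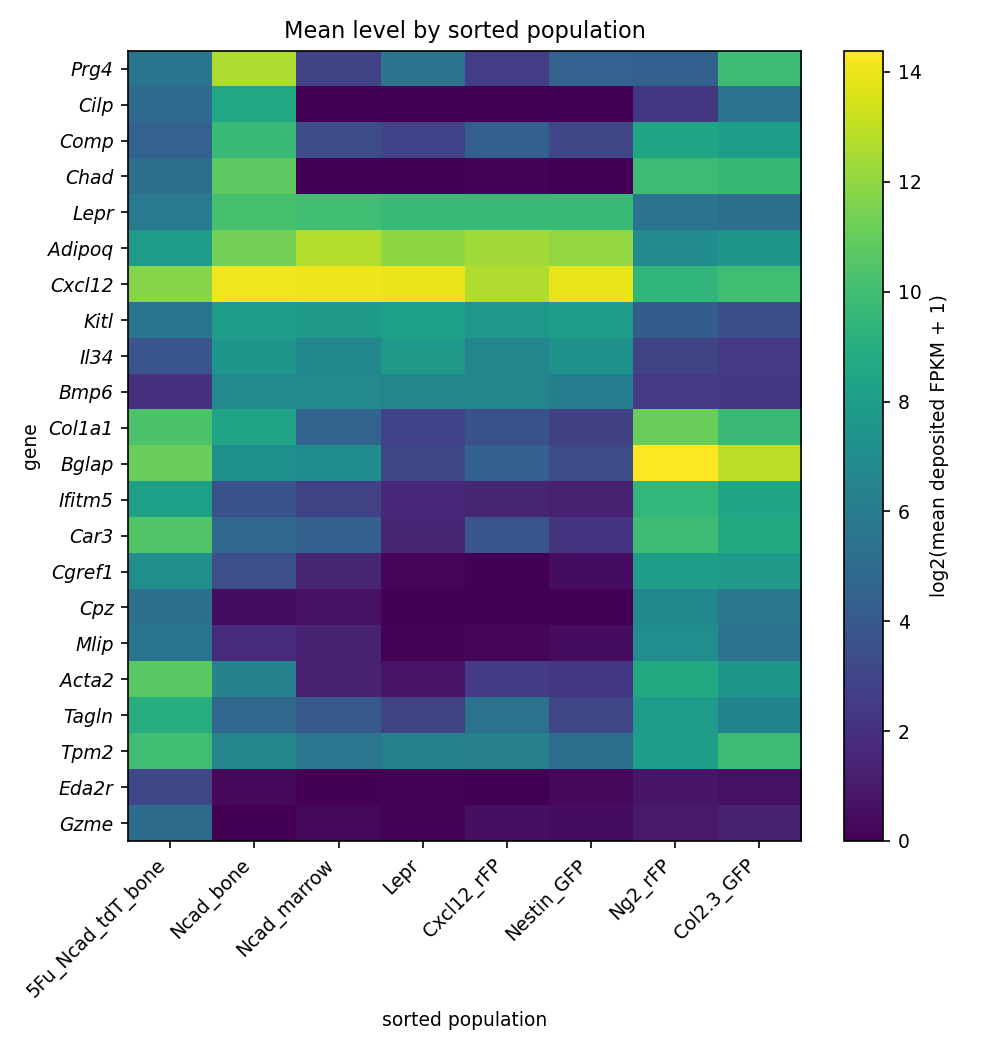
Colour gives log2(mean deposited FPKM + 1) of named genes (rows) in sorted populations (columns), of which the first comes from the table after 5FU and the others from the homeostasis table. Lepr averaged 58.9 after 5FU, 1162 in Ncad_bone and 35.5 in Col2.3_GFP.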

How the data were processed

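RNA was sequenced from sorted mouse cells of femur and tibia with a SMARTer ultra low input kit, per the labels' protocols. FPKM values were made by the authors with TopHat2 2.0.13 and Cufflinks 2.2.1 on mm10, per the submitters' processing notes, and deposited in 2 tables, with bcl2fastq 2.18 named for base calls. The annotation behind them is not stated by any source used here. The tables (47530 and 44381 genes) were joined by gene identifier into 44381 genes, of which 14 with a missing value were left out. Positions came from GENCODE M21 for 44022 genes. FPKM in the 7 bone columns, or in the 14 columns of bone and marrow, were divided by median-of-ratios factors. Genes that reached 1 FPKM in 3 or more libraries were tested with limma 3.58.1 (R 4.3.3, with the mean-variance trend) on log2(scaled FPKM + 1), with Benjamini-Hochberg adjustment over all genes tested. A gene could pass this filter through 1 group alone, as Gzme, Cpz, Clec3a and Klf1 did, which largely fixed the direction of its change. Nearly the same holds for Eda2r, for which only homeostasis replicate 1 reached 1 FPKM outside the 5FU group. The difference between tissues was an interaction contrast over 14 libraries. The script was tested on simulated data. The depth in reads is unknown, so no counting intervals are given.

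The members and gene lists were chosen with earlier results of these data known. Named genes were identity markers, the 12 largest rises and falls with groups that did not overlap and a mean of at least 10 FPKM, up to 4 called members of each list with a mean of at least 5 FPKM, and the 8 largest differences between tissues in each direction. The text prints part of these, and it adds list members and others chosen after their values were seen. Some genes are not reported here. Alternatives were other pseudocounts, filters, scalings and thresholds, a shared spread, a fit without the trend, a replicate block and single libraries left out, plus 2 chosen after seeing the data, protein-coding genes only and both homeostasis replicates 1 and 2 left out.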

Additional observations from a re-analysis of the deposited data

Results flagged for a closer look

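The change after 5FU differed between bone and marrow cells by the interaction term of the limma fit for the genes given here, each as the log2 change in bone minus that in marrow. Among cartilage and joint genes and Anxa8, the difference was -7.263 for Prg4, -8.064 for Clec3a, -6.164 for Lect1, -5.831 for Anxa8, -5.747 for Scrg1, -5.463 for Chad, -5.012 for Col9a3, -3.82 for Col2a1, -3.79 for Acan, -3.23 for Cilp and -2.993 for Comp, all more negative in bone, and 1.939 for Col11a1. Of these, Clec3a, Lect1, Anxa8, Scrg1, Chad, Col9a3, Acan and Cilp averaged under 1 scaled FPKM in marrow in both groups, so that their difference restates the fall in bone. For stromal genes and niche ligands it was -1.384 for Lepr, -1.83 for Cxcl12, -1.538 for Kitl, -1.977 for Vcam1, -1.924 for Gas6, -2.77 for Il34, -1.941 for Bmp6, -1.338 for Angpt1, -1.797 for Hp, -1.956 for Chrdl1 and -1.292 for Pdgfra. Bone matrix genes and their transcription factors were at 1.022 for Col1a2, 4.598 for Ibsp, -1.48 for Spp1, 2.714 for Dmp1, 3.439 for Mmp13, 2.074 for Runx2 and 2.038 for Mef2c. Contractile genes were at -4.303 for Acta2, -2.096 for Actg2 and -1.055 for Tpm2. Genes of the cell cycle and of the stress response were at 1.787 for Gdf15, 3.184 for Ccnb2, 1.548 for Ccnd1, -3.908 for Ccnd2, -2.446 for Cdkn1c and 1.393 for Cryab. Inflammatory, matrix and signalling genes were at -2.683 for C4b, -6.887 for Serpina3n, -2.245 for Adamts2, -2.2 for Col3a1, 1.169 for Col6a3, 3.797 for Cpz, -1.708 for Sfrp4, -3.356 for Igfbp3 and 1.929 for Hes1. Other genes with a difference were at 2.685 for Gzme, 4.39 for Reg3g, 3.018 for Arl5c, 2.521 for Mlip, -2.261 for Fmo2, -4.409 for Htra4, -6.832 for Msmp, -6.057 for Tmem140 and -4.128 for Kit. Of these, Reg3g and Msmp were under 1 scaled FPKM on average in both marrow groups. 

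A single homeostasis library stood apart from the other 3 for 4 named genes, by Dixon's criterion at 95%, which chance meets in about 1 in 20 groups. Replicate 1 had 1.1103 scaled FPKM of Eda2r and 99.496 of Hes1. Replicate 2 had 0.037768 of Gzme and 121.22 of Tmem140. For Eda2r and Gzme the other 3 libraries are listed at 0, where any value above 0 meets the criterion. The groups of 3 libraries after 5FU were not examined in this way.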

How the results depend on the processing

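With an adjusted p under 0.05 alone, 5745 genes were called in bone and 2161 higher and 1851 lower in marrow, against 1788 in all, and with a log2 change of at least 2, 768 were. The difference between tissues was called for 548 genes at a log2 difference of at least 2 and for 1325 genes with a mean of at least 5 FPKM, where 462 were more positive and 863 more negative in bone. The other settings run kept the 3 counts within 1.5 times. With single libraries left out, the counts ranged from 2641 to 3466 in bone, from 1607 to 1931 in marrow and from 1715 to 2383 for the difference. Protein-coding genes alone gave 2769 calls in bone, and homeostasis replicates 1 and 2 both left out gave 2987. Housekeeping scaling gave 30.5% of bone calls as higher, against 46.0%, 16.7% of marrow calls, against 49.5%, and 57.6% of differences as more positive, against 45.9%. Of 99 named genes 88 were called in bone, and 86 of these were called in every one of the 18 settings that gave them a value. The call of Hes1 was lost under quantile normalization and housekeeping scaling, and that of Mdm2 under housekeeping scaling, the replicate block and without homeostasis replicate 4. The called differences between tissues of Ccnd1, Col1a2, Dmp1, Mlip and Tpm2 were lost under some settings. Uncalled differences of 2 tendon genes changed sign, for Scx (bone minus marrow) to -0.078 with a pseudocount of 0.1, and for Tnmd (bone minus marrow), which ranged from -0.3208 to 0.2173 with single libraries left out, without homeostasis bone replicate 4 or marrow 5FU replicate 1 (0.2028). With a pseudocount of 0.1 the difference of Tnmd was called, at -2.257. The causes were not tested. Same-numbered libraries did not deviate together (r = 0.0258, 0.0208 and 0.0178 between the bone groups). Between bone and marrow of the same treatment r was -0.109 to 0.0498. Such values cannot settle whether same-numbered samples came from the same animals. A replicate block gave 3423 calls in bone, 1333 in marrow and 1840 for the difference. Depth in reads is unknown, and low FPKM carry the least precision.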
